A study of Saccharomyces cerevisiae with 4 samples.

Results

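The 6 protein-coding genes of the yeast mitochondrial genome that the RefSeq annotation gives without introns were examined in small RNA libraries of Saccharomyces cerevisiae, the budding yeast. They are ATP8 (Q0080), ATP6 (Q0085), OLI1 (Q0130), VAR1 (Q0140), COX2 (Q0250) and COX3 (Q0275), and they were taken by identifier from a table of 5798 genes, in which 19 identifiers belong to the mitochondrial genome. RNA interference is missing from budding yeast. DCR1, the gene of Dicer (which cleaves double-stranded RNA to short pieces), and AGO1, the gene of an Argonaute protein (which carries such pieces), restore it when both are introduced. The series title says that the rebuilt pathway served to map double-stranded RNA. There was 1 library from each of 4 strains: xrn1-delta DCR1 AGO1 (strain YAM1982, here xrn1 RNAi), DCR1 AGO1 with XRN1 intact (YAM1725, here RNAi), xrn1-delta without DCR1 and AGO1 (YAM2271, here xrn1) and wild type (YAM1730, here WT). XRN1 encodes the 5′ to 3′ exoribonuclease of the cytoplasm, which degrades decapped mRNA. The labels give 1 strain per genotype and no promoter, copy number or source species for DCR1 and AGO1, and nothing on whether the strains kept a complete mitochondrial genome.

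Mitochondria of budding yeast carry a small circular-mapping genome that is rich in A and T and is transcribed inside the organelle by its own RNA polymerase, RPO41, from promoters with a conserved motif of 9 bases. Primary transcripts often span several genes and are cut apart, and they are translated on mitochondrial ribosomes, close to the inner membrane. ATP6, ATP8 and OLI1 (subunits 6, 8 and 9) encode the parts of the ATP synthase that lie in the membrane, COX2 and COX3 encode core subunits of cytochrome c oxidase, and VAR1 encodes a protein of the small subunit of the mitochondrial ribosome.

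All 6 genes lie on the same strand of the mitochondrial genome of RefSeq assembly R64, written MT, and none is interrupted. The build behind the deposited values is not stated in the sources used here, so positions and sequences below are those of R64 and were matched by identifier. ATP8 (MT:27666-27812) and ATP6 (MT:28487-29266) are neighbours, separated by 674 bases, and ATP8 follows COX1 at a distance of 964 bases. OLI1 (MT:46723-46953) and VAR1 (MT:48901-50097) have only a serine tRNA gene between them. COX2 (MT:73758-74513) overlaps the reading frame Q0255 by 19 bases at its end, and COX3 (MT:79213-80022) stands between tRNA genes. The coding sequences of OLI1 and ATP8 are shown because these are the shortest of the 6 and had the highest and the lowest small RNA level per length in the WT and xrn1 libraries. Capitals mark G and C, which make up 33.3% of OLI1 and 19.05% of ATP8.
OLI1: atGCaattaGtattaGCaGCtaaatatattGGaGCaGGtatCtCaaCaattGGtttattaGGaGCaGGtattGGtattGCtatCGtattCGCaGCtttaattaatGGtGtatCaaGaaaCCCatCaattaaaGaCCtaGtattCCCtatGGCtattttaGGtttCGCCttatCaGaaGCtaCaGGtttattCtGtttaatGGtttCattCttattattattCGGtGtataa
ATP8: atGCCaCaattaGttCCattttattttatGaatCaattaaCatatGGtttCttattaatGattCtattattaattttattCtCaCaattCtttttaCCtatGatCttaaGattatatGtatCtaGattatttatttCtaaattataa

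VAR1 has the lowest G and C content of the 6, 10.4%, against 23.7% in ATP6, 26.7% in COX2, 30% in COX3 and 17.1% over the whole mitochondrial genome. Its bases are spread unevenly, as the 60-base stretches with the most and the fewest G and C show (MT:49075-49134, 56.7%, and MT:49376-49435, 0%). Repeated A and T leave few short words of its sequence that occur once in the genome. Of the 16-base windows of VAR1, 59.4% occur once in R64 on either strand, against 90.2% to 97.0% for the other 5 genes. Of 20-base windows it is 85.5% for VAR1, against 97.8% to 100% for the others. Reads were 10 to 40 bases long by the size selection in the labels, and how the authors treated reads with several matches is not stated in the sources used here.
VAR1, most G and C: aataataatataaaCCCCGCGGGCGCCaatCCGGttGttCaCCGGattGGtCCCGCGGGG
VAR1, fewest G and C: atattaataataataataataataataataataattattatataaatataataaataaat

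The mitochondrial promoter motif was searched as ATATAAGTA and TTATAAGTA on both strands, and the nearest match upstream of each gene on its own strand is shown in 30 bases with the motif in capitals. For ATP8 and ATP6 it was the same site, which lies ahead of COX1, 14308 and 15129 bases before their starts. OLI1 and VAR1 also shared their nearest site, 565 and 2743 bases upstream, and OLI1 had a further site next to it. The nearest sites of COX2 and COX3 lay 4044 and 1806 bases upstream. None of the 6 genes had a match between 250 bases before and 50 bases after its start, and of windows of that length 0 of 19 at mitochondrial reading frames and 1.4995% of 6002 at nuclear genes held one. The motif occurs 17 times on the strand of the genes and 5 times on the other strand. A match describes the sequence and does not show that a transcript starts there.
Upstream of COX1, ATP8 and ATP6: ataagtattgATATAAGTAatagatataat
Upstream of OLI1, further site: attaatattaATATAAGTAatatatatagt
Upstream of OLI1 and VAR1, nearest site: atacacatttATATAAGTAtatatatatat
Upstream of COX2: atatattttaTTATAAGTAataatatagtt
Upstream of COX3: atatattataTTATAAGTAataataagtat

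Levels are given as deposited. A single read contributed 0.0762 in xrn1 RNAi, 0.318 in RNAi, 0.330 in xrn1 and 1 in WT. Summed over all listed genes the libraries had 7686801, 1801407, 2825322 and 627607 reads, in that order. These sums are not counts of sequenced reads, since a read may be counted in more than 1 overlapping frame. XRN1, the deleted gene, had 0 reads in xrn1 RNAi and 39 in RNAi, and 3 in xrn1 and 148 in WT. The source of the 3 reads in the library labelled xrn1-delta was not tested. With 1 library per genotype there is no spread between replicates, so intervals are 95% intervals of counting error alone, exact Poisson for a level and exact conditional for a ratio of levels, and words such as higher and lower compare 2 libraries. Molecular identifiers are not mentioned, so duplicate reads may be among those counted. Each library comes from a bulk culture, in which fewer cells with mitochondrial RNA and less of it per cell cannot be told apart. Differences are of log2(value + 3.18), the pseudocount being the 10th percentile of non-zero values, which understates the change of genes with few reads. Comparisons include the genes that had 3.18 or more in at least 1 library of the pair, and a gene is called at 2-fold or more on this scale.

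Each of the 6 genes had less small RNA in both libraries with DCR1 and AGO1 than in either library without them. The 6 genes together had 360 reads in xrn1 RNAi, 0.00468% of all gene reads (Clopper-Pearson interval 0.00421 to 0.00519%), and 472 reads in RNAi, 0.0262% (0.0239 to 0.0287%). They had 53398 reads in xrn1, 1.89% (1.87 to 1.91%), and 9126 reads in WT, 1.45% (1.42 to 1.48%). The sums over genes may count reads of the COX1 and COB frames more than once. COX1 and its frame AI5_ALPHA had 192524 and 161702 reads in xrn1 and 32851 and 29704 in WT, against 646 and 501 in xrn1 RNAi. Repeated counts would make the shares in xrn1 and WT too low, which the intervals do not cover. The deepest library thus held the fewest reads of these genes, and the shallowest held more than both libraries with DCR1 and AGO1.

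OLI1, the gene of the membrane ring subunit 9, had a value of 17.6 (15.4 to 20.03) in xrn1 RNAi, 67.96 (59.2 to 77.7) in RNAi, 6766 (6674 to 6859) in xrn1 and 3440 (3326 to 3557) in WT. COX2 had 4.65 (3.56 to 5.97) in xrn1 RNAi, 39.4 (32.8 to 46.95) in RNAi, 5276 (5195 to 5359) in xrn1 and 2208 (2117 to 2302) in WT. COX3 had 4.65 in xrn1 RNAi, from 61 reads as for COX2, 37.2 (30.7 to 44.5) in RNAi, 4912 (4833 to 4991) in xrn1 and 2800 (2697 to 2906) in WT. In these 3 genes the libraries kept the same order, xrn1 highest, then WT, RNAi and xrn1 RNAi, with no overlap of the intervals.

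ATP6, which encodes the subunit at the proton channel of the ATP synthase, had 0.229 (3 reads, 0.0472 to 0.668) in xrn1 RNAi, 5.08 (16 reads, 2.90 to 8.25) in RNAi, 395 (373 to 418) in xrn1 and 469 (428 to 513) in WT. On the deposited scale it was the only 1 of the 6 with its highest value in WT. With each library divided by its sum over listed genes, VAR1 was also higher in WT than in xrn1 (log2 difference -0.09). VAR1 had 0.305 (4 reads, 0.0831 to 0.781) in xrn1 RNAi, 0.318 (1 read, 0.00804 to 1.77) in RNAi, 284 (266 to 304) in xrn1 and 204 (177 to 234) in WT. Its values in the libraries with DCR1 and AGO1 rest on so few reads that no difference between those libraries was detectable. ATP8, which encodes a small membrane subunit, had 0 reads in xrn1 RNAi and in RNAi, with 95% Poisson upper limits of 0.281 and 1.17, and 9.91 (30 reads, 6.69 to 14.2) in xrn1 and 5 (1.62 to 11.7) in WT.

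**Figure D1:**
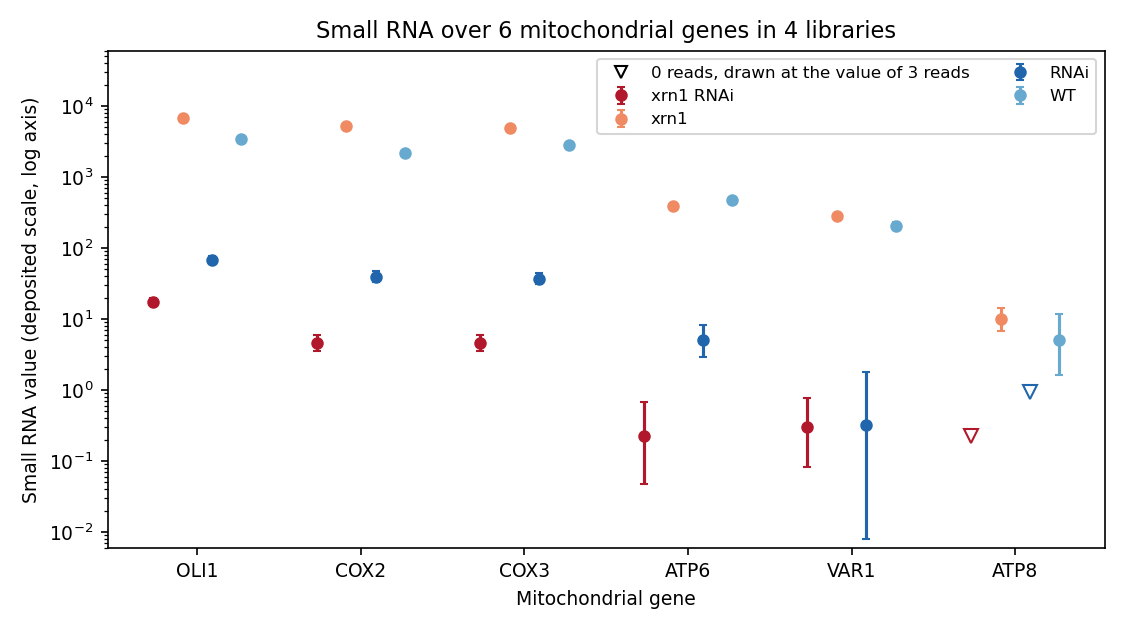
Deposited small RNA value of each of the 6 genes in the 4 libraries, on a log axis, with 95% Poisson intervals of counting error; open triangles stand for 0 reads at the value of 3 reads. In each gene both libraries with DCR1 and AGO1 lie below both libraries without them, down to 17.6 and 67.96 for OLI1 against 6766 and 3440.

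Per length of coding sequence the 6 genes differed among themselves by over 100-fold within every library. OLI1 had 29291 per kb in xrn1 and 14892 per kb in WT, and it ranked 1 of the 5789 genes with a known length in both. COX2 and COX3 ranked 4 and 6 in xrn1 (6979 and 6064 per kb) and 9 and 5 in WT (2921 and 3457 per kb). ATP6 had 506 per kb in xrn1 and 601 in WT, VAR1 238 and 170, and ATP8 67.4 and 34.0. In the libraries with DCR1 and AGO1, OLI1 still led with 76.2 per kb in xrn1 RNAi (rank 1138) and 294 per kb in RNAi (rank 251). COX2 and COX3 followed with 6.15 and 5.74 per kb in xrn1 RNAi and 52.1 and 45.9 per kb in RNAi, and in neither library did these 2 neighbours in the order differ beyond counting error. ATP6 and VAR1 had 0.293 and 0.255 per kb in xrn1 RNAi, with overlapping intervals, and 6.51 and 0.265 in RNAi. ATP8 could not be placed at this depth, as 3 reads would give it 1.56 per kb in xrn1 RNAi and 6.48 in RNAi.

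Genes with more G and C tended to have more small RNA per length. Spearman's rho between G and C content and the value per kb was 0.89 in xrn1 and 0.94 in WT (n = 6 genes). It is not given for the libraries with DCR1 and AGO1, in which ATP8 could not be placed. With coding length it was -0.09 in xrn1 and 0.03 in WT, and with the share of unique 20-base windows 0.27 in xrn1 and 0.39 in WT. The genes share libraries and a genome, so these are descriptions, and the part of base composition in cloning, mapping or RNA level was not tested.

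**Figure D2:**
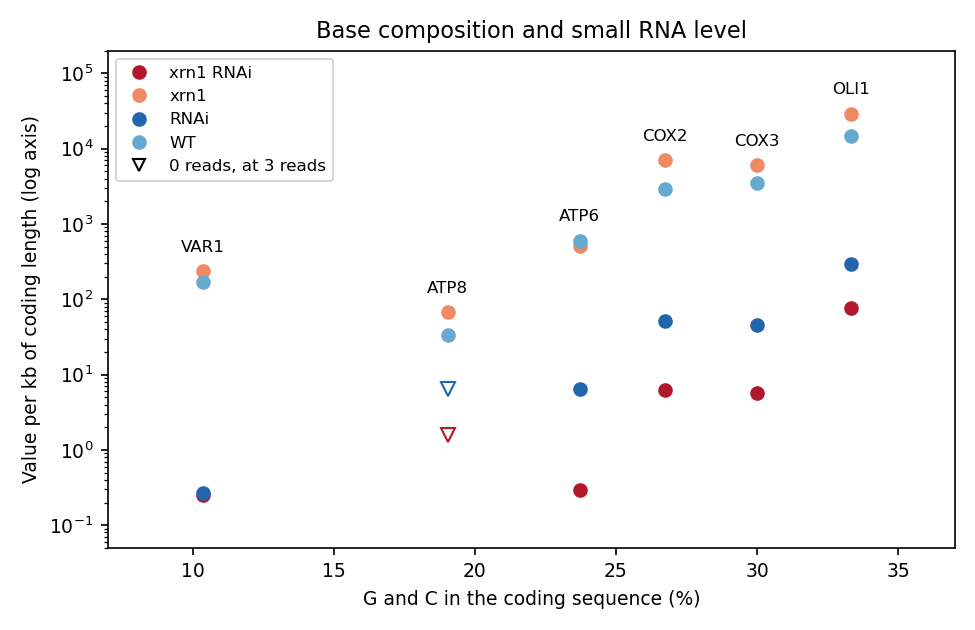
Value per kb of coding length (log axis) against the share of G and C in the coding sequence, 1 point per gene and library, with open triangles for 0 reads drawn at 3 reads. OLI1, with 33.3% G and C, has the highest level in each library, and ATP8 and VAR1, with 19.05% and 10.4%, have the lowest in xrn1 and WT.

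The adjacent genes ATP8 and ATP6 did not have equal small RNA levels, although long mitochondrial transcripts carry both. ATP6 exceeded ATP8 by 7.51-fold per kb in xrn1 (5.23 to 11.2) and by 17.7-fold in WT (7.52 to 54.7, from 5 reads of ATP8). OLI1 exceeded VAR1, the next protein gene downstream, by 123-fold per kb in xrn1 (115.1 to 132) and by 87.4-fold in WT (75.9 to 101.1). These ratios within a library do not depend on how libraries were scaled.

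The first comparison, RNAi over WT with XRN1 intact, asked which genes gain or lose small RNA when the pathway is present. All 6 genes were called lower, against 60.3% of all 5479 genes counted (15.2% were higher). The fold by which the value was lower in RNAi than in WT was 50.6 for OLI1 (44.1 to 58.4), 56.1 for COX2 (46.8 to 67.7), 75.4 for COX3 (62.6 to 91.5) and 92.3 for ATP6 (56.2 to 163). For VAR1 it was 642 (114 to 25495, from 1 read in RNAi), and ATP8 was at least 5.25-fold lower, taking 3 reads for its 0. The intervals of OLI1 and COX3 do not overlap, so the factor was not the same for all genes within counting error. The median log2 difference of the 6 was -5.77, and -6.02 as plain ratios with ATP8 at its bound, against -1.56 for 5456 nuclear genes. On the log2 scale 5 of the 6 lay below the range that held the central 95% of nuclear genes (-4.54 to 3.53). A gene with few reads in WT could not fall below that range on this scale, and nuclear genes were not matched for level. ATP8, at -1.36, lay near the nuclear median, but with 5 reads in WT it could not go lower on this scale.

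In cells lacking XRN1 the same addition (xrn1 RNAi over xrn1) went with a larger fall. All 6 were called lower, against 58.1% of 5445 genes (15.3% were higher). The value in xrn1 RNAi was lower than in xrn1 by 384-fold for OLI1 (338 to 439), 1135-fold for COX2 (883 to 1484), 1056-fold for COX3 (822 to 1382), 1727-fold for ATP6 (589 to 8385) and 933-fold for VAR1 (363 to 3432). ATP8 was at least 43.3-fold lower. The median log2 difference was -7.61, and -9.96 as plain ratios with ATP8 at its bound, against -1.45 for 5422 nuclear genes. Of the 6 genes 5 were again below the central 95% of those (-4.67 to 2.85), a range that genes with few reads in xrn1 could not fall below. ATP8, VAR1 and ATP6 reached the pseudocount in xrn1 only, as ATP8 and VAR1 did in WT only in the comparison before, so these could be counted only as lower.

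**Figure D3:**
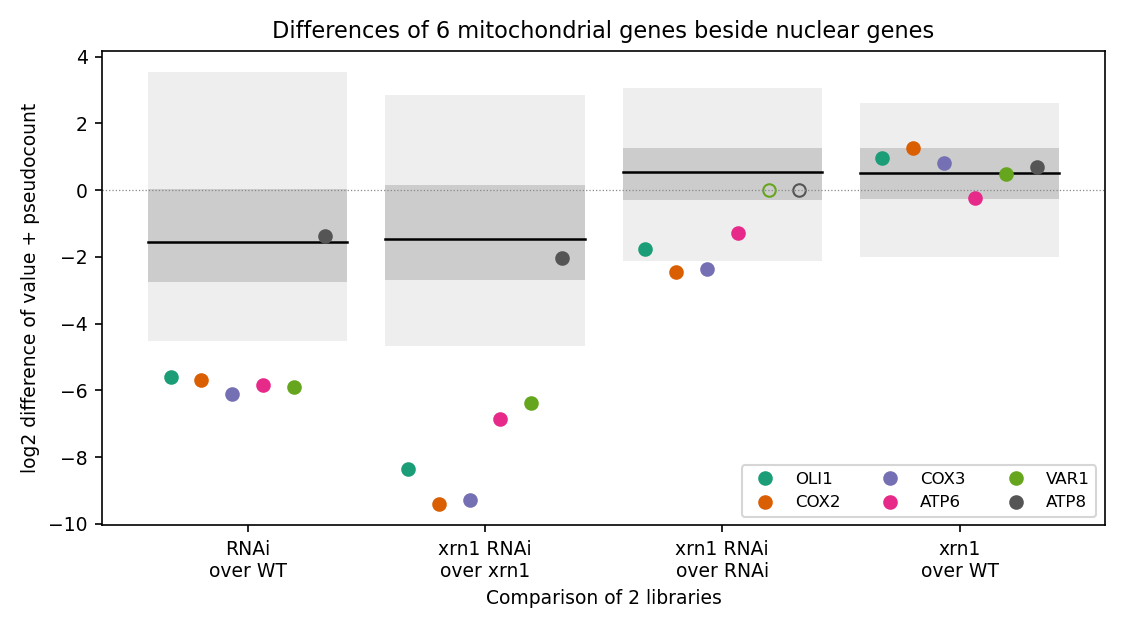
Difference of log2(value + 3.18) of each of the 6 genes in 4 comparisons of 2 libraries, with filled points for genes counted and open points for genes below 3.18 in both libraries. The line and the dark and light bands are the median and the central 50% and 95% of nuclear genes, which were not matched for level. In both comparisons of libraries with and without DCR1 and AGO1, 5 of the 6 genes lie below the light band. Genes with few reads could not reach below it.

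The loss with DCR1 and AGO1 was greater without XRN1 for OLI1, COX2 and COX3, and for ATP6 as a plain ratio. The plain log2 ratio of the 2 ratios was -2.92 for OLI1 (-3.20 to -2.65), -4.34 for COX2 (-4.79 to -3.89), -3.81 for COX3 (-4.26 to -3.36) and -4.23 for ATP6 (-6.01 to -2.44), by a normal approximation to counting error. For VAR1 it was -0.54 with an interval of -3.71 to 2.63, which crossed 0, and ATP8 gave none. With the pseudocount, the difference was -3.70 for COX2, -3.18 for COX3 and -2.75 for OLI1, against a median of -0.04 for 5362 nuclear genes, of which 51.1% were below 0. The difference for COX2 was lower than that of all but 0.186% of nuclear genes, that of COX3 of all but 0.858% and that of OLI1 of all but 1.88%. Nuclear genes were not matched for level, and genes with few reads could not reach such differences on this scale. ATP6, ATP8 and VAR1 lay at 23.6%, 32.3% and 37.9% of nuclear genes. The place of ATP6 is limited by the pseudocount, since it had 3 reads in xrn1 RNAi and 16 in RNAi. Its value was -1.03 with the pseudocount, against -4.23 as a plain ratio. With 0 to 4 reads in the libraries with DCR1 and AGO1, ATP8 and VAR1 carry little but their xrn1 over WT difference into this value, and it says nothing of the pathway for them. Without replicates this difference between backgrounds was not tested.

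Where the pathway was present, loss of XRN1 (xrn1 RNAi over RNAi) left 4 of the 6 genes counted, and all 4 were called lower, against 11.8% of 5084 genes (33.1% were higher). The value in xrn1 RNAi was lower than in RNAi by 3.86-fold for OLI1 (3.19 to 4.67), 8.47-fold for COX2 (6.18 to 11.7), 7.99-fold for COX3 (5.82 to 11.1) and 22.2-fold for ATP6 (6.36 to 119, from 3 and 16 reads). ATP6 was counted through RNAi alone, so it could only be lower. The median log2 difference of the 4 was -2.07, and -3.04 as plain ratios, against 0.55 for 5068 nuclear genes. VAR1 had a ratio of 0.960 (0.0950 to 47.3), and ATP8 had no reads in either library.

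Where it was absent, loss of XRN1 (xrn1 over WT) went with small differences that moved in both directions. COX2 was the 1 gene called higher, and none was called lower, against 33.2% and 9.9% of 5507 genes. The ratio of xrn1 over WT was 2.39 for COX2 (2.29 to 2.4995), 1.97 for OLI1 (1.90 to 2.04), 1.75 for COX3 (1.68 to 1.83), 1.39 for VAR1 (1.196 to 1.63) and 0.842 for ATP6 (0.756 to 0.939). ATP8 had 1.98 (0.762 to 6.54), an interval that includes 1. The median log2 difference of 0.74 was close to the 0.51 of nuclear genes, and relative to that median COX2 had 0.75, OLI1 0.47, COX3 0.30, ATP8 0.17, VAR1 -0.03 and ATP6 -0.75. Dividing each library by its sum over listed genes moved nuclear genes by -0.54, after which COX2 was no longer called (0.68) and VAR1 had -0.09. ATP6 was lower and COX2, OLI1 and COX3 were higher in xrn1 under that scaling too. That sum may count reads of the COX1 and COB frames more than once. Division by the sum over nuclear genes gave 0.80 for COX2, 0.02 for VAR1 and -0.70 for ATP6. The comparisons share the xrn1 and WT libraries with those of DCR1 and AGO1, so their values are not independent.

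The make-up of the reads of the 6 genes, which does not depend on scaling, differed between libraries. OLI1 took 64.2% of them in xrn1 RNAi (59.0 to 69.1%), 45.3% in RNAi (40.8 to 49.95%), 38.3% in xrn1 (37.9 to 38.8%) and 37.7% in WT (36.7 to 38.7%). COX2 took 16.9% in xrn1 RNAi (13.2 to 21.2%), 26.3% in RNAi (22.4 to 30.5%), 29.9% in xrn1 (29.5 to 30.3%) and 24.2% in WT (23.3 to 25.1%), and COX3 16.9%, 24.8%, 27.8% and 30.7% in the same order. The share of OLI1 was thus highest, and those of COX2 and COX3 lowest, in xrn1 RNAi. ATP6 took 2.24% in xrn1 (2.11 to 2.37%), against 5.14% in WT (4.70 to 5.61%). The COX2 to COX3 ratio per kb was 1.15 in xrn1 (1.13 to 1.18) and 0.845 in WT (0.799 to 0.894), so that their order turned round beyond counting error.

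**Figure D4:**
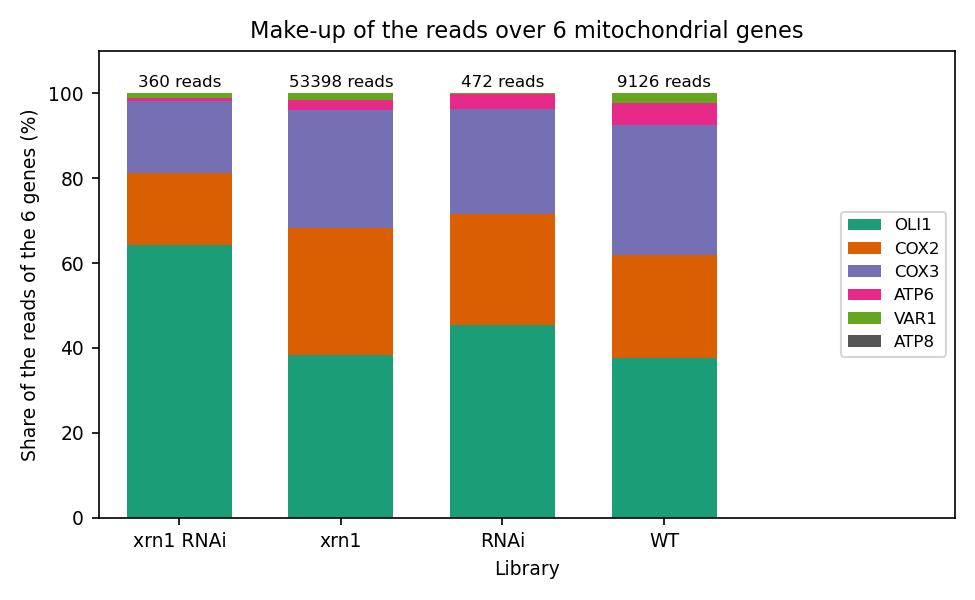
Share of each gene in the reads of the 6 genes, in percent, for the 4 libraries, with the number of reads above each bar. OLI1 holds 64.2% of 360 reads in xrn1 RNAi, against 38.3% of 53398 in xrn1.

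Whole reads were recovered for 100% of values, which allowed a count test as an alternative, with edgeR's quasi-likelihood method and Benjamini-Hochberg adjustment over 5539 genes. It fitted an additive effect of DCR1 and AGO1 and of XRN1 deletion over the 4 libraries, so each background stood in as the replicate of the other. There was 1 residual degree of freedom. The fit takes a common effect for both backgrounds, whereas the ratios of ratios of OLI1, COX2, COX3 and ATP6 had counting intervals that exclude 0. Its p does not measure the spread between replicate cultures of a strain. All 6 genes were called lower with DCR1 and AGO1 at an adjusted p under 0.05, against 18.3% of all genes (20.5% were called higher). The test took genes that reached the pseudocount in some library. ATP8 and VAR1 reached it only in libraries without DCR1 and AGO1, so these genes could be called only lower. Their calls and adjusted p therefore say nothing on direction. OLI1, COX2, COX3 and ATP6 reached the pseudocount in RNAi too, so their direction was not set by this filter. The edgeR log2 effects and adjusted p were -5.44 and 0.00141 for OLI1, -6.28 and 0.000471 for COX2, and -6.45 and 0.000327 for COX3. For ATP6 they were -6.65 and 1.9e-06, and for VAR1, from 4 reads and 1 read with DCR1 and AGO1, -7.99 and 1.07e-09. For ATP8 the adjusted p by edgeR was 0.0208, and its fitted effect is not given, since with 0 reads in both libraries it depends on the prior count. Each gene was lower in 2 of 2 backgrounds. For ATP8 and VAR1 in both backgrounds, and for ATP6 without XRN1, no other direction could be counted. None of the 6 was called for XRN1 deletion by edgeR, against 0.451% of genes called higher and 0.379% called lower. This effect averages both backgrounds, and OLI1, COX2 and COX3 differed in opposite directions in them, so it does not show an absence of difference in either. The unadjusted p of ATP6 was 0.0201 (adjusted p 0.267 by edgeR), and the other adjusted p were 0.652 to 0.9997.

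Other RNAs moved with these genes. COX1 and its 6 intron frames were all lower in RNAi than in WT (median log2 difference -6.37), and so were COB and its 3 (-6.22). In xrn1 RNAi over xrn1 the medians were -10.34 and -9.73. Of all genes 60.3% and 58.1% were lower in these comparisons. The frames of a gene are not separate RNAs, since a read may be counted in several of them. In WT, reads rose from 9039 for AI1 to 29704 for AI5_ALPHA and 32851 for COX1. How many reads the frames share was not tested. The -7.61 of the 6 intronless genes is not ranked against these, since the pseudocount limits ATP8, ATP6 and VAR1. As plain ratios COX1 was 1292-fold and COB 1151-fold lower in xrn1 RNAi than in xrn1, within the 384 to 1727-fold of the 5 intronless genes with reads. The 4 identifiers of the 2-micron plasmid, a nuclear plasmid of yeast, were also lower in RNAi (R0010W with 1 read, against 4351 in WT) and in xrn1 RNAi (R0040C with 0 reads, against 5903 in xrn1). R0010W also differed without the pathway, with a value of 73.7 in xrn1 against 4351 in WT. The labels do not say whether the strains with DCR1 and AGO1 were derived separately, and the part of strain history, mitochondrial genome content or library make-up in the result was not tested.

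Nuclear genes that work with the 6 were examined from lists of subunits and factors, beside the 58.1% of all genes called lower and 15.3% called higher in xrn1 RNAi over xrn1 and the 60.3% and 15.2% in RNAi over WT. Subunits of the ATP synthase encoded in the nucleus were lower in 12 of 14 in xrn1 RNAi than in xrn1 (median log2 difference -2.64) and in 11 of 14 in RNAi than in WT (-2.61), with none higher. The lowest was ATP2, the catalytic beta subunit, with 10.5 in xrn1 RNAi against 1225 in xrn1 and 10.2 in RNAi against 1446 in WT. The highest was ATP18, a small membrane subunit, with 46.5 in xrn1 RNAi against 49.6 in xrn1 and 9.84 in RNAi against 8 in WT. Nuclear cytochrome oxidase subunits were lower in 5 of 9 and higher in 1 in xrn1 RNAi (median -1.20), and lower in 5 of 8 and higher in 1 in RNAi (-1.11). The higher 1 in both was COX5B, the subunit isoform of low oxygen, with 146 in xrn1 RNAi against 34.0 in xrn1 and 62.2 in RNAi against 7 in WT. The lowest were COX13 in xrn1 RNAi (6.40, against 160 in xrn1) and COX4 in RNAi (2.86, against 50 in WT). These oxidase counts were near the shares over all genes, and both medians were close to the nuclear medians of -1.45 and -1.56.

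Of 12 factors that act on the mRNAs of the 6 genes, such as translational activators, 8 were lower and 2 higher in xrn1 RNAi (median -2.06) and 9 lower and 1 higher in RNAi (-2.48). Of all genes 58.1% and 60.3% were lower, so the 8 of 12 lower in xrn1 RNAi is near the background. PET122, an activator of COX3 translation, had 1584 in RNAi against 34 in WT, and NCA3, linked to expression of ATP6 and ATP8, had 408 in xrn1 RNAi against 46.9 in xrn1. AEP2, needed for OLI1 expression, had 6.99 in RNAi against 292 in WT, and ATP22, needed for ATP6 translation, had 4.04 in xrn1 RNAi against 194 in xrn1. Of 14 genes of membrane insertion and maturation, 7 were lower and 1 higher in each comparison, a share under that of all genes called lower. OXA1, the insertase of mitochondrial translation products, had 1191 in RNAi against 143 in WT, and COX18, which exports the tail of COX2 protein, had 226 in xrn1 RNAi against 83.9 in xrn1. By their identifiers OXA1 (YER154W) and PET122 (YER153C) are neighbours on opposite strands. Both were high in RNAi and lower in xrn1 RNAi (161 and 147). Whether they share 1 signal was not tested, as the strand of the values is not given. MBA1, a ribosome receptor of the inner membrane, was lowest in both, with 4.12 in xrn1 RNAi against 120 in xrn1 and 2.22 in RNAi against 118 in WT.

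Of 8 genes of mitochondrial transcription and RNA turnover, 7 were lower and none higher in each comparison (medians -2.75 in xrn1 RNAi over xrn1 and -3.31 in RNAi over WT), where 58.1% and 60.3% of all genes were lower. RPO41, the mitochondrial RNA polymerase, had 5.95 in xrn1 RNAi against 228 in xrn1 and 10.8 in RNAi against 375 in WT. PET127, a gene of mitochondrial RNA processing, was highest, with 166 in xrn1 RNAi against 161 in xrn1 and 218 in RNAi against 263 in WT. Of 8 genes of mitochondrial DNA maintenance, 7 were lower in each comparison (medians -2.99 and -2.61). They included RIM1, a single-stranded DNA binding protein gene, with 2.90 in xrn1 RNAi against 73.4 in xrn1, and MGM101, with 9.21 in RNAi against 239 in WT. ABF2, which packages mitochondrial DNA, was not called, with 172 in xrn1 RNAi against 88.6 in xrn1 and 13.97 in RNAi against 8 in WT.

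Of 28 genes of the small mitochondrial ribosomal subunit, to which the VAR1 protein belongs, 22 were lower in each comparison, and 0 were higher in xrn1 RNAi and 1 in RNAi (medians -2.64 and -2.19). Of all genes 58.1% were lower in xrn1 RNAi over xrn1 and 60.3% in RNAi over WT. MRPS35 was lowest in xrn1 RNAi (1.75, against 164 in xrn1) and RSM22 in RNAi (3.81, against 160 in WT), and MRP1 was highest in both, with 103 in xrn1 RNAi against 72.7 in xrn1 and 72.7 in RNAi against 28 in WT. The medians of the 7 nuclear lists lay between -2.99 and -0.89 in xrn1 RNAi over xrn1 and between -3.31 and -1.11 in RNAi over WT. Those of the 6 mitochondrial genes were -7.61 and -5.77. These medians are not ranked, since the pseudocount limits genes with few reads. As plain ratios in RNAi over WT, nuclear ATP synthase subunits ran from 142-fold lower for ATP2 to a ratio of 1.23 for ATP18. OLI1, COX2, COX3 and ATP6 were 50.6 to 92.3-fold lower, within that range. In xrn1 RNAi over xrn1, ATP2 was 116-fold lower, against 384-fold for OLI1. In xrn1 RNAi over RNAi, 7 of 12 ATP synthase and 6 of 8 oxidase subunit genes of the nucleus were higher and none lower (medians 1.40 and 1.94), against 33.1% higher and 11.8% lower of all genes. In xrn1 over WT, 9 of 14 and 7 of 9 were higher and none lower (1.41 and 2.01), against 33.2% higher and 9.9% lower of all genes.

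**Figure D5:**
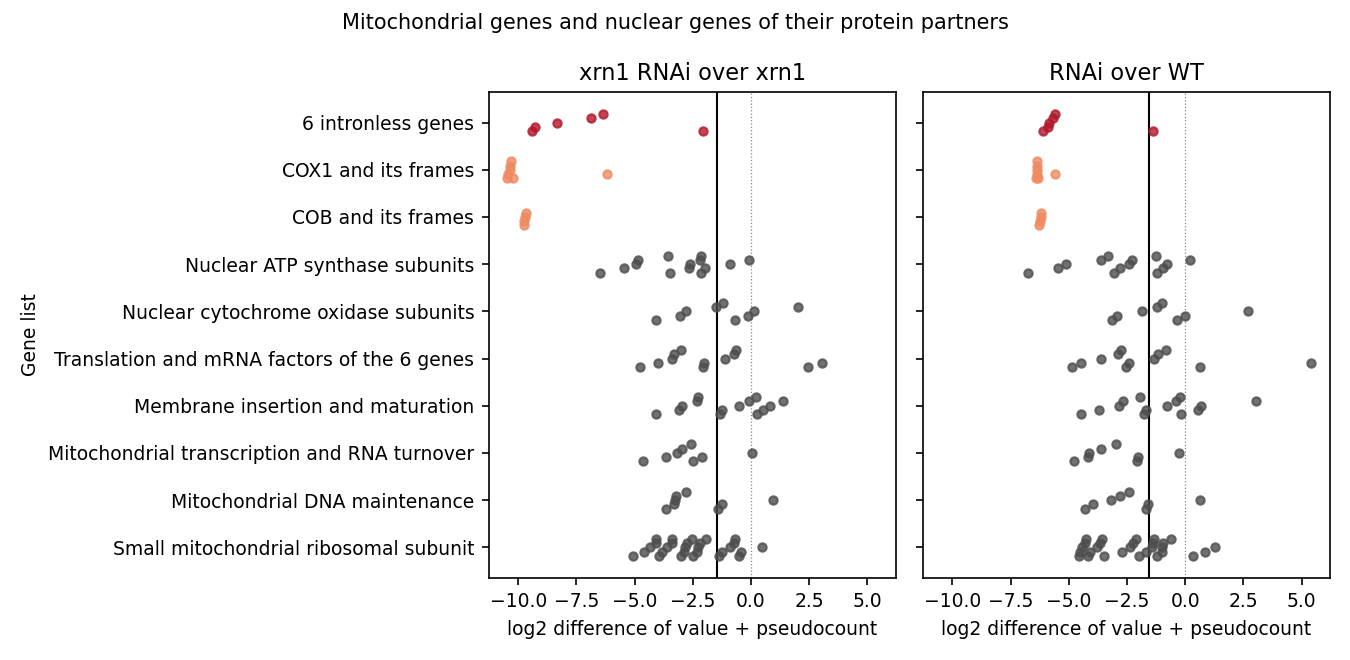
Difference of log2(value + 3.18) in xrn1 RNAi over xrn1 and in RNAi over WT for each counted gene of the 6 intronless mitochondrial genes, COX1 and COB with their frames, and 7 lists of nuclear partners; the line is the median of nuclear genes. The 6 intronless genes lie at medians of -7.61 and -5.77 and the nuclear lists between -2.99 and -0.89 and between -3.31 and -1.11. The pseudocount limits genes with few reads, so these medians are not ranked. Points of the COX1 and COB frames may share reads.

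Nuclear genes whose profile over the 4 libraries was most like the mean profile of the 6 were ranked by Euclidean distance of centred log2(value + 3.18), among 4921 genes that reached 31.8 in a library. Distances of the 10 nearest were 0.607 to 1.24, against a median of 4.84 over these genes, 0.700 for ATP6, 0.935 for VAR1, 0.987 for OLI1, 1.73 for COX2, 1.803 for COX3 and 4.46 for ATP8. COX1 was at 2.52 and COB at 2.19, so the 10 nuclear genes lay nearer to this mean than COX1, COB, COX2 or COX3. The nearest was YOR072W-B, a gene of no known function, with 4.65 in xrn1 RNAi, 11.4 in RNAi, 582 in xrn1 and 559 in WT. It was followed by RPS31, which encodes a fusion of ubiquitin and a ribosomal protein (8.99 in xrn1 RNAi, 11.1 in RNAi, 1423 in xrn1 and 685 in WT). NDE1, the gene of an NADH dehydrogenase on the outer face of the inner mitochondrial membrane, had 22.0 in xrn1 RNAi, 29.2 in RNAi, 1725 in xrn1 and 1043 in WT. The others were CDC60, a leucyl-tRNA synthetase gene, TMA19, YOL013W-A, which the reference does not annotate, the ribosomal protein genes RPL16B and RPL21A, which have close paralogs, ACO1, the aconitase gene of mitochondria, and ILV3, an amino acid synthesis gene. The mean profile includes ATP8, ATP6 and VAR1, whose low values the pseudocount limits, so likeness to it is not likeness to OLI1, COX2 or COX3 alone. With 4 libraries such a likeness is a description of levels only.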

How the data were processed

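Small RNA of 10 to 40 bases was gel-purified or fractionated from total RNA and sequenced, per the labels' protocols, with 1 library per genotype. The submitters' processing notes name cutadapt and Bowtie; versions, build, annotation, strand, multiple matches and the scaling rule are each not given in the sources used here. The WT column holds a deposited count of reads per gene. The other 3 columns hold a signal deposited by the authors that equals whole reads times 1 factor per library: 100% of values were whole multiples of the smallest, to 1e-06. Reads were recovered by division, and the deposited scale was kept for values.

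The genes, lists and named genes were chosen with earlier results of these data known. Of 5798 identifiers 5789 matched RefSeq R64, the source of symbols, coding lengths and sequences. Nuclear genes are the 5775 identifiers outside the mitochondrial genome and the plasmid. From each list the genes with the highest and lowest difference per DCR1 and AGO1 comparison were named, and the 10 nuclear genes nearest in profile. edgeR 4.0.16 in R 4.3.3 was run on recovered reads of genes reaching the pseudocount of 3.18 (TMM), and other steps in Python 3.11.15 with scipy 1.17.1. Both were tested on simulated data. Other settings were pseudocounts of 0.318 and 31.8, no filter, a filter at 31.8, 3 scalings and relative log expression factors. Added after the data were seen were the uniqueness of windows, the TTATAAGTA search in windows taken from the genome, and plain ratios with 0 set to 3 reads.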

Additional observations from a re-analysis of the deposited data

Results flagged for a closer look

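Between libraries with XRN1 deleted and intact, 3 of the 6 genes differed in opposite directions with and without DCR1 and AGO1. Their counting intervals lay on opposite sides of no change. The difference of log2 differences, with minus without, was -2.75 for OLI1, -3.70 for COX2 and -3.18 for COX3. OLI1 was 3.86-fold lower in xrn1 RNAi than in RNAi and 1.97-fold higher in xrn1 than in WT. COX2 was 8.47-fold lower in xrn1 RNAi than in RNAi and 2.39-fold higher in xrn1 than in WT, and COX3 was 7.99-fold lower and 1.75-fold higher. COX1 and COB, the other protein genes of this genome, turned in the same way: COX1 was 8.26-fold lower in xrn1 RNAi than in RNAi and 1.94-fold higher in xrn1 than in WT, and COB 9.27-fold lower and 1.64-fold higher. With 1 library per genotype the difference between the backgrounds was not tested. Each genotype is also 1 strain, so strain and genotype cannot be told apart.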

How the results depend on the processing

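No paired analysis was possible because each genotype has 1 library, and for the same reason no library could be left out. With DCR1 and AGO1 added, 6 genes were called lower in both backgrounds under 5 of the 7 other settings. With a pseudocount of 31.8 and with a filter at 31.8 it was 5, ATP8 being under 2-fold or uncounted. The median log2 difference in xrn1 RNAi over xrn1, -7.61, was -9.17 with a pseudocount of 0.318, -5.41 with 31.8, -8.35 with the filter at 31.8, -7.04 with division by the sum over listed genes, -6.27 with size factors and -9.96 as plain ratios. In RNAi over WT, -5.77 was -4.37 with a pseudocount of 31.8, -6.09 with division by the sum over nuclear genes, -4.07 with size factors and -6.02 as plain ratios. In xrn1 RNAi over RNAi, -2.07 was -2.96 with 0.318, -0.94 with 31.8, when 1 gene was called lower in place of 4, -1.53 with no filter, -2.90 with size factors and -3.04 as plain ratios. In xrn1 over WT, 0.74 was 0.88 with 0.318, 0.61 with 31.8, 0.26 with the sum over listed genes, 0.36 with the sum over nuclear genes, 0.32 with size factors and 0.89 as plain ratios, and 0 genes were called higher under the 3 scalings. The median difference between backgrounds, -1.89 over 6 genes of which ATP8 and VAR1 bear only on xrn1 over WT, was -2.98 with 0.318, -1.07 with 31.8, -2.75 with the filter at 31.8, -1.41 and -1.44 with the sums over listed and nuclear genes, and -2.25 with size factors. In edgeR with relative log expression factors the effect of XRN1 deletion on VAR1 was -0.16, against 0.0012, neither called.

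Size factors moved nuclear genes by 1.54 in RNAi over WT and 1.43 in xrn1 RNAi over xrn1; then 1763 and 1715 genes were lower, against 3303 and 3161, and 1882 and 1796 higher, against 834 and 835. In xrn1 RNAi over RNAi they gave 1054 higher and 1281 lower, against 1681 and 599, and in xrn1 over WT 1068 and 892, against 1831 and 545. The relative median of the 6 genes was -4.05 with size factors in RNAi over WT, against -4.21. Depth limits ATP8, VAR1 and ATP6, which had at most 16 reads in the libraries with DCR1 and AGO1.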

Other observations

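Reading frames of the mitochondrial genome outside the protein genes behaved in a similar way in these libraries. SCEI, the endonuclease frame in an intron of the large ribosomal RNA gene, had 2.21 in xrn1 RNAi, 12.7 in RNAi, 2871 in xrn1 and 971 in WT. It was 2.96-fold higher in xrn1 than in WT, above the 2.39-fold of COX2. Q0255, the frame that overlaps the end of COX2, had 1.75 in xrn1 RNAi, 27.6 in RNAi, 1474 in xrn1 and 1515 in WT. Its ratio of xrn1 over WT was 0.973, against 2.39 for COX2. The frame was 15.8-fold lower in xrn1 RNAi than in RNAi, against 8.47-fold for COX2.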
